A study of Mus musculus with 8 samples.

Results

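Genes that mark fibroblasts, fat cell progenitors and mural cells were compared between Abhd15 knockout (KO) and wild-type (WT) mice in epididymal white adipose tissue (eWAT), the visceral fat pad beside the epididymis. The set was a list of 38 gene symbols drawn up from what the genes are known to mark, with earlier results of these data known. A probe set carrying exactly 1 gene symbol measured 35 of the 38, out of 22180 genes measured in all, and where a gene had several such probe sets the one with the highest mean over the 8 arrays was used. Ly6a and Fbn1 were not analysed here, and Loxl2 was covered only by probe sets annotated to a second gene as well. Of the 35 genes, 34 had an average signal no lower than the median over all measured genes (3.61 on the log2 scale) and were tested among 11090 genes, while Dlk1 lay below that level in every array.

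All mice were males on a C57BL/6J background, fed normal chow. They were 14 weeks old, were fasted overnight and then had chow for 1 h before the pad was frozen. WT (n = 3) and Abhd15 KO (n = 5) mice each gave 1 Affymetrix Mouse Gene 2.0 ST array made from 200 ng of total RNA. The labels do not give how the KO allele was made or whether the animals were littermates. ABHD15, a protein with an alpha/beta-hydrolase fold, is made mainly in adipocytes, where it takes part in the brake that insulin puts on lipolysis. Values are deposited log2 values after RMA (robust multi-array average), so a difference of 1 is a doubling of signal, and levels are compared within a gene across arrays and never between genes.

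White fat consists of lipid-filled adipocytes within a stroma of fibroblasts, vessels and immune cells. New adipocytes arise from PDGFRA-positive stromal cells, which range from DPP4- and PI16-positive progenitors of the interstitial sheath around the tissue to ICAM1-positive preadipocytes committed to the fat lineage. Mural cells, the pericytes and smooth muscle cells that wrap vessels, carry PDGFRB and depend on the ligand PDGFB made by endothelial cells. In whole tissue, fewer cells of a type and less RNA per cell cannot be told apart.

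The signal of Abhd15 was 6.36, 6.45 and 6.15 in WT 1 to WT 3 and 5.77, 6.07, 6.27, 5.60 and 5.75 in KO 1 to KO 5, so that the library labelled KO 3 lay inside the WT range. It is unknown here whether the probes lie in the deleted part, so this does not check the labels. Arrays correlated at r = 0.962 to 0.978 over 41345 probe sets. The 6 adipocyte markers were all measured above the level filter, with means over the list of 10.84 to 10.87 in WT and 10.36 to 10.95 in KO. Epididymis and seminal vesicle genes were high in WT 1 (list mean 4.42) and KO 4 (5.95) and at 2.03 to 2.54 elsewhere. Seminal vesicle genes (Svs2, Svs4 and Svs5) made up the signal of WT 1 and epididymal genes (Lcn5, Adam7 and Spint4) that of KO 4. Svs5 also read 4.51 in WT 2, against 1.71 to 2.58 in WT 3 and the KO arrays. Adam7 also read 4.93 in KO 3 and 3.73 in KO 5, against 1.67 to 1.96 in the remaining arrays. The erythrocyte gene Slc4a1 was high in KO 1 (4.72) and KO 2 (5.28) and at 2.61 to 3.11 elsewhere.

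The DNA before the start sites of 3 genes is shown first. Sema3c read higher in KO, Mcam read lower, and Acta2 overlapped between the genotypes. Which cells of the tissue gave these signals was not measured. The 250 bases before the start were read 5′ to 3′ on the gene's strand from a RefSeq table (GRCm38.p6), which matched 25 of the 38 symbols and did not list Tagln. Sema3c and Mcam, which carried the largest positive and the largest negative difference of the set, are printed in full with each GC box (GGGCGG on either strand) in capitals. For Acta2, whose window lies inside the annotated gene, only the stretches around its matches are printed, with the matches in capitals. These are CArG-like stretches, that is, the binding motif of serum response factor, which drives smooth muscle genes, with 1 mismatch in the A/T core.
Sema3c, chr5:17574566-17574815, + strand: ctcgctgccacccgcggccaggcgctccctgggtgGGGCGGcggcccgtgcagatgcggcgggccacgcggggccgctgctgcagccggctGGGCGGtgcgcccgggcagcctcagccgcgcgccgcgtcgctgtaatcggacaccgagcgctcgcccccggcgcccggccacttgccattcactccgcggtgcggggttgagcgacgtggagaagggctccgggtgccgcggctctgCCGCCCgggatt
Mcam, chr9:44134408-44134657, + strand: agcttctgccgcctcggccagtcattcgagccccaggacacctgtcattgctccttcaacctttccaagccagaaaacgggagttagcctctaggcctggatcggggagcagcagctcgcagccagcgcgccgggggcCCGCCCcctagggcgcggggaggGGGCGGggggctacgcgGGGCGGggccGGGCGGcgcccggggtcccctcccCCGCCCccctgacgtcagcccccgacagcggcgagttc
Acta2 upstream match, chr19:34255438-34255467, - strand: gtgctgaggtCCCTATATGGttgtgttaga
Acta2 downstream match, chr19:34255388-34255417, - strand: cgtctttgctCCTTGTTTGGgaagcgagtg
The Sema3c window held 3 GC boxes and 78.4% G and C, and the Mcam window 5 GC boxes and 73.6%. Over all 32851 windows the median was 52.4% G and C, and 32.7% held a GC box. Among the 25 listed genes with a window, 16 had a GC box, Cd55, Icam1 and F3 among them, so it is not particular to Sema3c and Mcam. The Acta2 matches begin 84 and 34 bases before the start. At most 1 mismatch was allowed, and 8.59% of all windows held such a match (1.47% with none), as did the windows of Acta2, Fbln2 and Gsn among the listed genes. Neither the Mcam nor the Sema3c window held one. These are matches of letters and say nothing about binding.

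No gene passed the adjusted threshold of 0.05 in limma, neither among the 34 nor among the 11090 tested (0% called), so every difference below is a measured value that did not pass it. At an unadjusted p under 0.05 in limma, 7 of the 34 genes (20.6%) were called, 2 higher and 5 lower in KO, and 4 when WT 2, KO 2 or KO 3 was left out. The background was 10.5% of all tested genes, 4.04% higher and 6.46% lower. The genotypes did not overlap for 4 of the 34 genes (11.8%), Sema3c above and Efhd1, Mcam and Tagln below, against 8.53% of all tested genes (2.99% above and 5.54% below). Whether the members' shares differ from the background was not tested, and the second lies near it. The median difference over the 34 genes was -0.09, with 14 higher and 20 lower, and over all tested genes it was -0.028. Of all tested genes 44.8% were higher in KO, the background for every count of directions given here. When mice of equal replicate number were paired as blocks, which leaves KO 4 and KO 5 without a WT partner, 9 of the 34 genes and 18% of all tested genes had an unadjusted p under 0.05, and 2 genes, no member among them, passed the adjusted threshold.

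**Figure D1:**
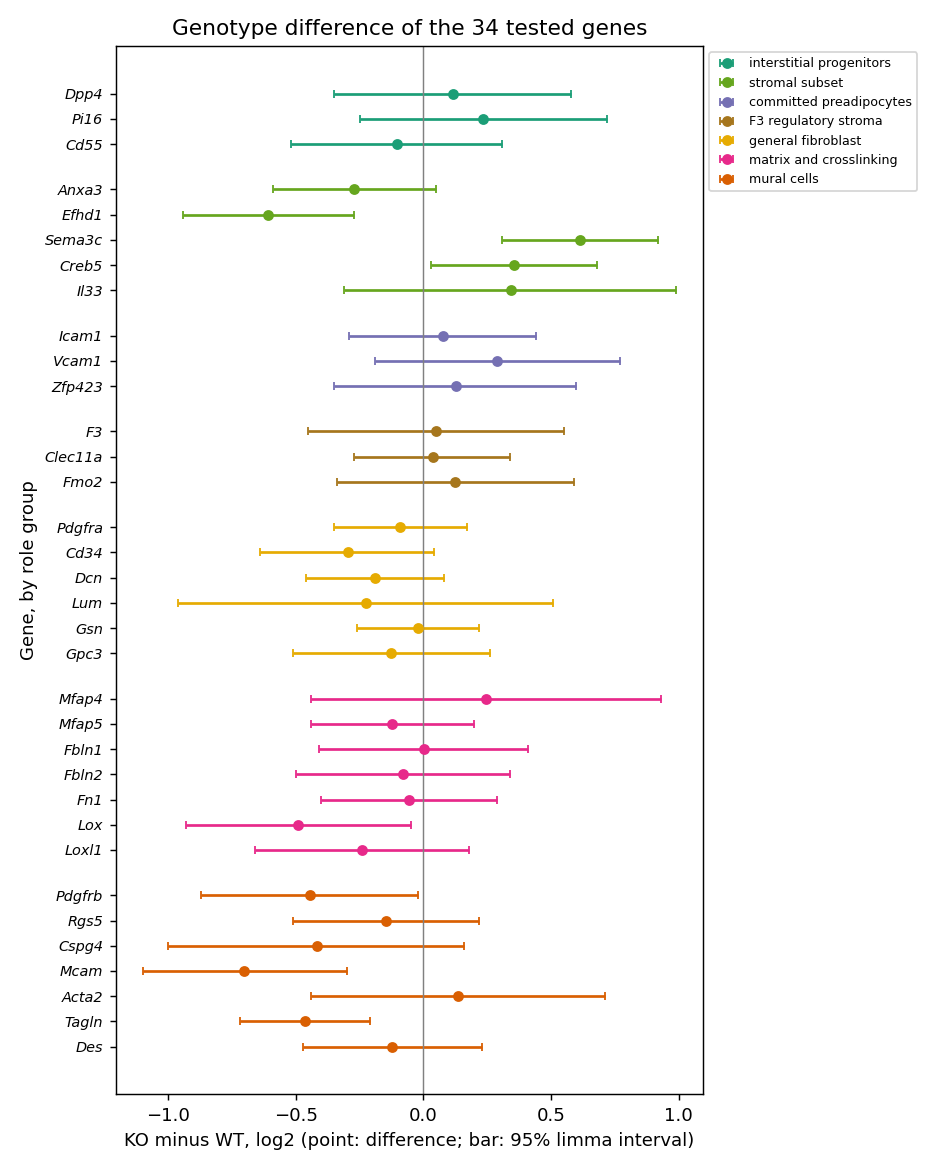
Difference between KO (n = 5) and WT (n = 3) on the log2 scale for the 34 tested genes, one row per gene and coloured by role. Points are differences of group means and bars are limma's 95% intervals. The intervals of Sema3c and Creb5 lie above 0 and those of Efhd1, Lox, Pdgfrb, Mcam and Tagln below it.

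The interstitial progenitor genes did not separate the genotypes. Dpp4, a dipeptidyl peptidase on the surface of these cells, read 7.29, 6.71 and 6.99 in WT. It read 6.56, 7.08, 7.37, 7.41 and 7.14 in KO, so the KO arrays spanned the WT range on both sides. Its difference was 0.12 (SE 0.209, 95% interval -0.35 to 0.58, adjusted p = 0.878 in limma). It changed sign without WT 2 (-0.02). Pi16, a secreted peptidase inhibitor, read 5.40, 5.46 and 5.01 in WT and 6.10, 5.59, 5.11, 5.50 and 5.31 in KO. KO 1, KO 2 and KO 4 were above the WT range, KO 2 and KO 4 by little, and the difference was 0.23 (SE 0.216, -0.25 to 0.72, adjusted p = 0.74). Cd55, which protects cells from complement, read 7.06, 6.87 and 6.84 in WT and 7.07, 6.96, 7.12, 6.46 and 6.49 in KO. KO 1 to KO 3 lay within or just above the WT range while KO 4 and KO 5 were below all other arrays, for a difference of -0.10 (SE 0.185, -0.52 to 0.31, adjusted p = 0.876). The median of the 3 genes was 0.12.

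The genes of committed preadipocytes overlapped between the genotypes as well. Icam1, the adhesion molecule by which these cells are sorted, read 5.45, 5.07 and 5.30 in WT and 5.56, 5.40, 5.24, 4.98 and 5.57 in KO, a difference of 0.08 (SE 0.165, -0.29 to 0.44, adjusted p = 0.899 in limma). The adhesion molecule Vcam1 was at 6.92, 6.79 and 6.62 in KO 1 to KO 3, above the WT range of 6.07 to 6.31, but at 5.99 and 6.17 in KO 4 and KO 5. Its difference of 0.29 (adjusted p = 0.673) became 0.57 with the replicate block (unadjusted p = 0.00794, adjusted p = 0.165) and 0.05 without KO 1 and KO 2. Zfp423, a transcription factor of preadipocyte commitment, differed by 0.13 (adjusted p = 0.866), with KO 5 the highest array at 6.39. The median of these 3 genes was 0.13. Dlk1, the secreted and membrane-bound inhibitor of adipogenesis known as Pref-1, was dim throughout, at 3.11, 2.36 and 2.97 in WT and 2.57, 2.87, 2.87, 2.5 and 2.73 in KO, and no array of KO left the WT range.

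F3, Clec11a and Fmo2 mark a stromal population described as restraining adipogenesis (F3, or CD142, is the tissue factor of blood clotting). Their differences were 0.05, 0.04 and 0.13, none with an adjusted p in limma under 0.864. The direction of each turned under at least 2 of 18 alternative settings. Fmo2, a flavin monooxygenase, was at 9.28 in KO 5 and at 8.39 to 8.61 in the other KO arrays, against 8.29 to 8.69 in WT.

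The 5 further genes that vary between stromal subsets went in opposite directions. Sema3c, a secreted semaphorin that guides migrating cells and is made by stromal cells of fat, read 7.28, 7.16 and 6.95 in WT and 7.92, 7.71, 7.53, 7.86 and 7.70 in KO. Every KO array was above every WT array, and the signal was 1.53 times that of WT (difference 0.61, SE 0.137, 0.31 to 0.92). It ranked 63rd of 11090 genes by p (unadjusted p = 0.00116 and adjusted p = 0.203 in limma, exact two-sided permutation p = 0.0357, the smallest that 56 divisions of the arrays allow). Creb5, a transcription factor of the CREB family, read 6.05, 6.28 and 6.34 in WT and 6.50, 6.69, 6.83, 6.56 and 6.30 in KO. Of the KO arrays 4 were above all WT arrays and KO 5 lay inside the WT range, for a difference of 0.35 (SE 0.148, 0.03 to 0.68, adjusted p = 0.442, exact permutation p = 0.0714).

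Efhd1, a calcium-binding protein of mitochondria, went the other way. It read 4.60, 5.02 and 4.89 in WT and 4.44, 3.98, 4.35, 4.22 and 4.14 in KO, each KO array below each WT array, and the KO signal was 65.7% of that in WT (difference -0.61, SE 0.150, -0.94 to -0.27, adjusted p = 0.254 in limma, exact permutation p = 0.0357). A second Efhd1 probe set was near the floor of the arrays, at 1.45 to 2.12, with a difference of -0.01. Anxa3, a membrane-binding annexin, was below all WT arrays in 4 of 5 KO arrays (difference -0.27, adjusted p = 0.545). Il33, an alarm cytokine of stromal and mesothelial cells, varied widely within both groups (3.92 to 4.77 in WT and 4.23 to 5.41 in KO, difference 0.34, adjusted p = 0.715).

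**Figure D2:**
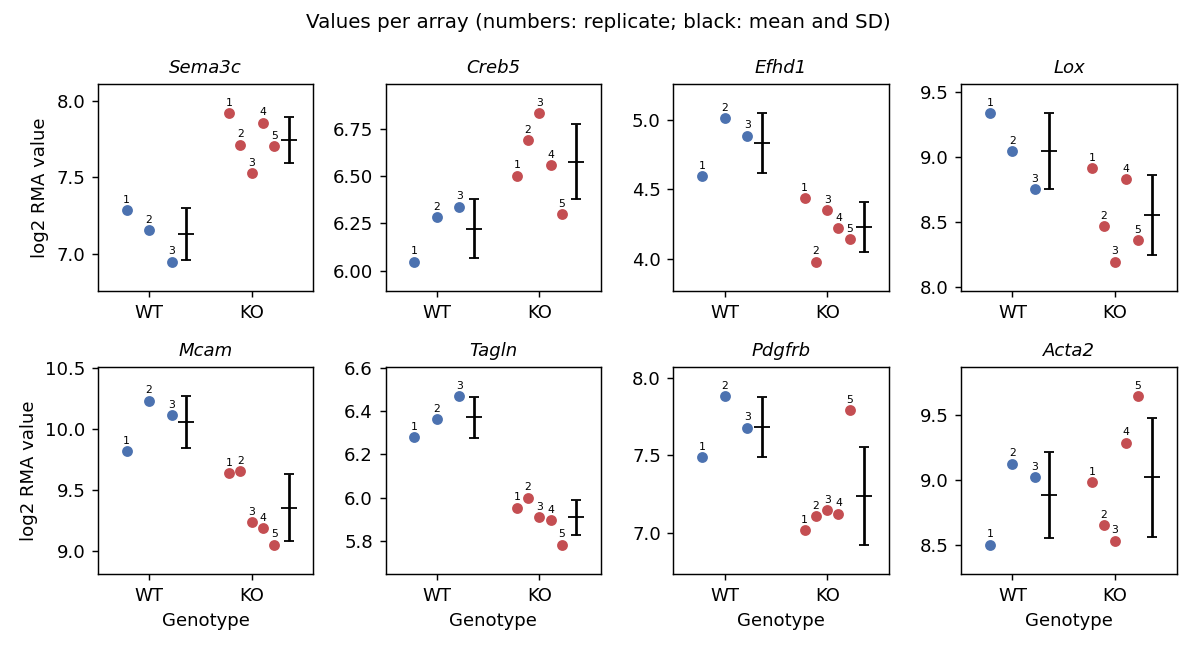
Log2 value of each array for 8 genes, with WT on the left and KO on the right of every panel, replicate numbers above the points, and group mean and SD in black. Each panel has its own vertical scale, which does not start at 0. Sema3c, Efhd1, Mcam and Tagln show no overlap between the genotypes, while KO 5 lies among the WT arrays for Creb5 and Pdgfrb and is the highest array for Acta2.

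The general fibroblast genes differed little. Pdgfra, the receptor that defines these cells, read 8.36, 8.61 and 8.48 in WT and 8.35, 8.42, 8.50, 8.34 and 8.36 in KO. The arrays lay close together, and the difference was -0.09 (SE 0.116, -0.35 to 0.17, adjusted p = 0.817 in limma), an interval that excludes a halving or a doubling of signal. The surface sialomucin Cd34 (-0.30, adjusted p = 0.528), the small collagen-binding proteoglycans Dcn (-0.19, 0.611) and Lum (-0.22, 0.847), the actin-severing protein Gsn (-0.02, 0.965) and the heparan sulphate proteoglycan Gpc3 (-0.13, 0.832) had negative values too. The sign turned for Gsn with arrays centred on their medians (0.01) or quantile normalized (0.05), and for Lum, Gsn and Gpc3 with the replicate block. Lum had the widest spread within groups of all 34 genes (SD 0.556), with 7.03 to 7.24 in KO 1 to KO 3 and 6.07 and 5.87 in KO 4 and KO 5. The median of the 6 genes was -0.16.

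Among the genes of microfibrils, fibronectin and collagen crosslinking, Lox was the one with an unadjusted p under 0.05. Lox, the copper-dependent oxidase that crosslinks collagen and elastin, read 9.34, 9.05 and 8.75 in WT and 8.91, 8.47, 8.20, 8.83 and 8.36 in KO. KO 2, KO 3 and KO 5 were below all WT arrays while KO 1 and KO 4 lay above WT 3. The difference was -0.49 (SE 0.199, -0.93 to -0.05, adjusted p = 0.431 in limma, exact permutation p = 0.107), and it shrank to -0.35 without WT 1. Its relative Loxl1 differed by -0.24 (adjusted p = 0.689). Fn1, the fibronectin gene, differed by -0.06, the microfibril genes Mfap5 and Mfap4 by -0.12 and 0.24, and the fibulins Fbln1 and Fbln2, which join elastic fibres to their surroundings, by 0.00 and -0.08, none with an adjusted p under 0.801. The median of the 7 genes was -0.08.

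The mural cell genes had the lowest median difference of the 7 role groups, a comparison made without a test. Of 7 genes 6 had negative differences and 1 a positive one, while 44.8% of all tested genes were higher. Of these 6, 3 (42.9% of the 7, background 10.5%, of which 6.46% lower) had an unadjusted p under 0.05 in limma. The median was -0.42 (-0.38 with arrays centred on their medians or quantile normalized), against -0.028 over all tested genes. Averaged over the 7 genes, the level was 7.39, 7.68 and 7.68 in WT and 7.38, 7.36, 7.12, 7.25 and 7.27 in KO, with KO 1 barely below WT 1. With the replicate block the median was -0.20.

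Mcam, an adhesion molecule (CD146) of pericytes, smooth muscle and also endothelium, read 9.82, 10.23 and 10.11 in WT and 9.64, 9.65, 9.24, 9.19 and 9.05 in KO. All KO arrays were below all WT arrays and the KO signal was 61.5% of that in WT (difference -0.70, SE 0.178, -1.10 to -0.30, adjusted p = 0.27 in limma, exact permutation p = 0.0357). Tagln, the actin-binding protein transgelin (SM22) of smooth muscle, read 6.28, 6.36 and 6.47 in WT and 5.95, 6.00, 5.91, 5.89 and 5.78 in KO. Both groups were tight, with SDs of 0.0942 and 0.0815, and did not overlap. Its difference was -0.46 (SE 0.114, -0.72 to -0.21, adjusted p = 0.254, exact permutation p = 0.0357), that is, 72.5% of the WT signal.

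Pdgfrb, the receptor through which PDGFB recruits mural cells, read 7.49, 7.88 and 7.68 in WT and 7.02, 7.11, 7.15, 7.12 and 7.79 in KO. KO 1 to KO 4 were below all WT arrays and close to one another, whereas KO 5 lay inside the WT range. The difference was -0.44 (SE 0.189, -0.87 to -0.02, adjusted p = 0.45 in limma, exact permutation p = 0.107). Without KO 5, the array that stood apart, it was -0.58 (unadjusted p = 0.00122, adjusted p = 0.126 in limma). It was -0.33 without KO 1 and KO 2 (unadjusted p = 0.164) and -0.51 without WT 1 and KO 4 (unadjusted p = 0.0632). With array weights it was -0.58 (unadjusted p = 0.0017) and with the replicate block -0.59 (unadjusted p = 0.00411). Cspg4, the pericyte proteoglycan NG2, was at 5.05 and 5.00 in KO 1 and KO 2, inside the WT range of 4.75 to 5.15, and at 4.06 to 4.16 in KO 3 to KO 5. Its difference of -0.42 (adjusted p = 0.599) was -0.78 without KO 1 and KO 2 (adjusted p = 0.333) and -0.20 with the replicate block (adjusted p = 0.748).

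Acta2, the smooth muscle alpha-actin gene, did not share the direction of Tagln. It read 8.51, 9.13 and 9.02 in WT and 8.98, 8.66, 8.54, 9.29 and 9.64 in KO, so that the groups overlapped and KO 5 was the highest array, for a difference of 0.14 (SE 0.258, -0.44 to 0.71, adjusted p = 0.886 in limma). The sign turned in 5 of 18 alternative settings, among them array weights (-0.10). The skeletal alpha-actin gene Acta1, whose coding sequence is close to that of Acta2, was also highest in KO 5 (9.13) and KO 4 (7.98). The remaining arrays did not follow the order of Acta2. Acta1 read 7.69, 7.49 and 6.96 in WT and 7.90, 6.43 and 5.87 in KO 1 to KO 3, so WT 1, the lowest array for Acta2, was the highest WT array. The other 4 genes of the skeletal muscle list were below the level filter. Whether probes of either gene read the transcript of the other was not tested. The intermediate filament gene Des (-0.12, adjusted p = 0.821) and the G protein regulator Rgs5 of pericytes (-0.15, adjusted p = 0.788) had small negative values. A second probe set of Rgs5 differed by -0.05.

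**Figure D3:**
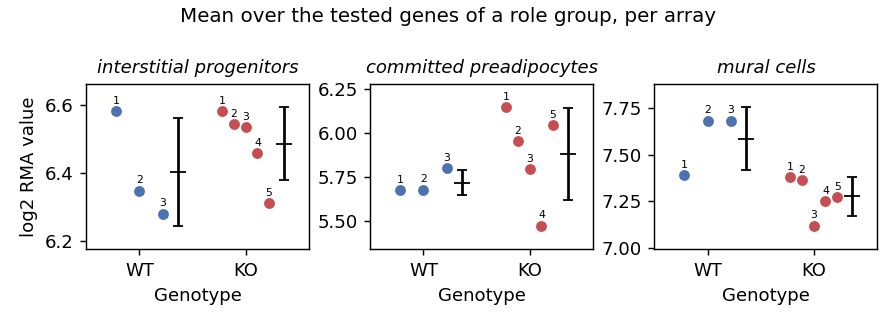
Mean log2 value over the tested genes of 3 role groups in each array, with WT on the left and KO on the right, replicate numbers above the points, and group mean and SD in black. Interstitial (3 genes) and committed (3 genes) values overlap between the genotypes, while the mural means (7 genes) of KO lie below those of WT, KO 1 (7.38) only just below WT 1 (7.39). The vertical scales differ between panels and do not start at 0.

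Set against each other within an array, interstitial minus mural means were -0.81, -1.33 and -1.40 in WT and -0.80, -0.82, -0.59, -0.79 and -0.96 in KO. WT 1 lay among the KO arrays, and the shift of the group means was 0.39. Committed minus mural means were -1.72, -2 and -1.88 in WT and -1.23, -1.41, -1.33, -1.78 and -1.23 in KO, a shift of 0.47, with KO 4 between the WT arrays. Interstitial minus committed means overlapped widely, with a shift of -0.08. No separation of the genotypes was seen in the balance between the progenitor classes, and both shifts against the mural genes overlapped between groups. No test was made on these averages, because the genes were chosen with results of these data known.

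Of 11 other mural genes tested, 7 were lower and 4 higher, with a median of -0.26, and 1 (9.09%) had an unadjusted p under 0.05 (background 10.5%). Kcnj8, the pore of the pericyte potassium channel, read 6.70, 6.43 and 6.11 in WT and 6.11, 5.94, 5.66, 6.31 and 5.33 in KO (difference -0.54, adjusted p = 0.442 in limma). The Notch effector Heyl (-0.46, 0.483), Higd1b (-0.39, 0.494) and the guanylate cyclase subunit Gucy1b1 (-0.38, 0.527) followed. Of 10 smooth muscle contractile genes tested, 4 were higher and 6 lower, none with an unadjusted p under 0.05, and the median was -0.11. Their list means were 4.90 to 5.27 in WT and 5.00 to 5.31 in KO. The smallest p-values belonged to Synpo2 (0.44, adjusted p = 0.542), Smtn (-0.25, 0.626), Mylk (0.33, 0.74) and Tpm2 (-0.21, 0.758).

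Ligands and receptors of the PDGF and TGF-beta pathways, which direct mural recruitment and fibroblast activation, held 3 of 17 tested genes (17.6%, background 10.5%) with an unadjusted p under 0.05, 1 higher (background 4.04%) and 2 lower (6.46%). Pdgfb read 7.26, 7.18 and 7.38 in WT and 6.08, 6.19, 6.24, 6.58 and 7.08 in KO. The groups did not overlap, and KO 5 was nearest to WT, as it was for Pdgfrb. The difference was -0.84 (SE 0.217, -1.33 to -0.36, adjusted p = 0.27 in limma, exact permutation p = 0.0357). With array weights, under which 40 of all tested genes passed the adjusted threshold, Pdgfb did so too (-0.97, adjusted p = 0.0388 in limma). It did not with the replicate block (-1.11, adjusted p = 0.0942), without KO 1 and KO 2 (-0.64, 0.441) or without WT 1 and KO 4 (-0.88, 0.705). Tgfb3 was higher in every KO array (6.52 to 6.96) than in any WT array (5.96 to 6.42, difference 0.49, adjusted p = 0.335). The type I receptor gene Tgfbr1 differed by -0.47 (adjusted p = 0.371) and overlapped, and Pdgfc, a ligand of PDGFRA, by 0.31 (adjusted p = 0.573).

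**Figure D4:**
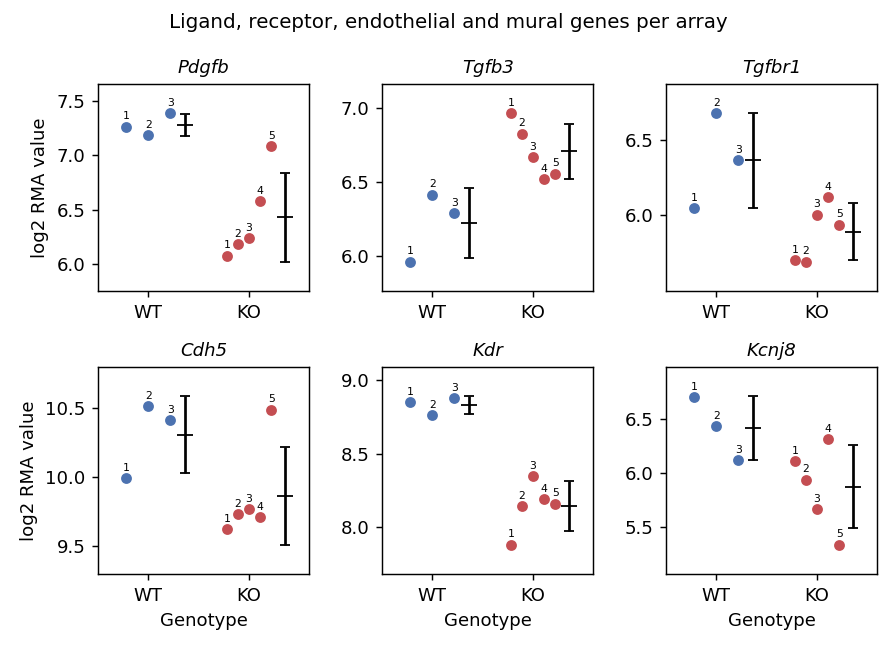
Log2 value of each array for Pdgfb, Tgfb3, Tgfbr1, the endothelial genes Cdh5 and Kdr and the mural gene Kcnj8, with WT on the left and KO on the right, replicate numbers above the points, and group mean and SD in black. For Pdgfb (7.08) and Cdh5 (10.49) KO 5 is the highest KO array, whereas for Kdr it lies with the other KO arrays. The vertical scales differ between panels and do not start at 0.

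Endothelial markers mostly read lower in KO as well. Of 8 tested, 7 were lower in KO and 1 higher, and 6 had an unadjusted p under 0.05 (75%, background 10.5%), 5 of them lower (background 6.46%). The sixth was Cldn5, a tight junction gene, which was higher by 0.61 (unadjusted p = 0.0324 and adjusted p = 0.43 in limma) with overlapping groups. Their list means were 8.01 to 8.41 in WT and 7.75 to 8.09 in KO, and KO 5 (8.09) was the array inside the WT range. Kdr, the main VEGF receptor of endothelium, was below all WT arrays (8.76 to 8.88) in all KO arrays (7.88 to 8.35, difference -0.69, adjusted p = 0.15 in limma). Cdh5, the endothelial cadherin, singled out after its values were seen, read 9.62 to 9.77 in KO 1 to KO 4 and 10.49 in KO 5, against 9.99 to 10.52 in WT. The part of the endothelial genes in the lower mural values was not tested. Macrophage list means (7.94 to 8.14 in WT, 7.68 to 8.24 in KO) and mesothelial list means (5.72 to 5.96 and 5.55 to 6.11) overlapped. Within the mesothelial list 6 of 9 genes were higher in KO and 3 lower, with a median of 0.18. Of the 9, 1 (11.1%, background 10.5%) had an unadjusted p under 0.05 in limma, the membrane mucin Muc16. Against the direction of most of its list, Muc16 was below all WT arrays in every KO array (difference -0.85, adjusted p = 0.254 in limma, exact permutation p = 0.0357). T and B cell and Schwann cell genes were mostly dim, with 1 tested gene in each list.

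A wider list of progenitor and fibroblast genes gave no call. Of 26 tested 14 were higher and 12 lower, none had an unadjusted p under 0.05 in limma, and the median was 0.03. The smallest p-values were those of the nuclear receptor Nr2f2 (-0.33, adjusted p = 0.527), the small proteoglycan Aspn (-0.57, 0.592), Ly6c1 (-0.57, 0.609) and the transcription factor Twist2 (-0.56, 0.616). List means overlapped, at 6.22 to 6.38 in WT and 6.21 to 6.38 in KO.

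Across arrays the 34 genes did not shift as a block. The number above the WT range was 10 in KO 1, 9 in KO 2, 10 in KO 3, 5 in KO 4 and 6 in KO 5, and the number below it was 11, 8, 10, 20 and 16. Over all tested genes 33.5% were above and 29.2% below the WT range in KO 1, 29.7% and 32.5% in KO 2, and 27.6% and 29.6% in KO 3. The shares were 24% above and 33.3% below in KO 4, and 22.9% and 43.1% in KO 5. KO 4 thus had its lower values in a larger share of these genes than of all genes, a description with no test. KO 4 is also the array with the highest level of epididymal transcripts, and their part in this was not tested. Without WT 1 and KO 4, Efhd1, Mcam, Sema3c and Tagln still had an unadjusted p under 0.05, as did 6.59% of all tested genes. Cd34 was the fifth such gene of the 34, while Creb5, Lox and Pdgfrb were not among them. Without KO 1 and KO 2 the same 4 genes had an unadjusted p under 0.05, with Lox and Cspg4, against 9.39% of all tested genes.

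**Figure D5:**
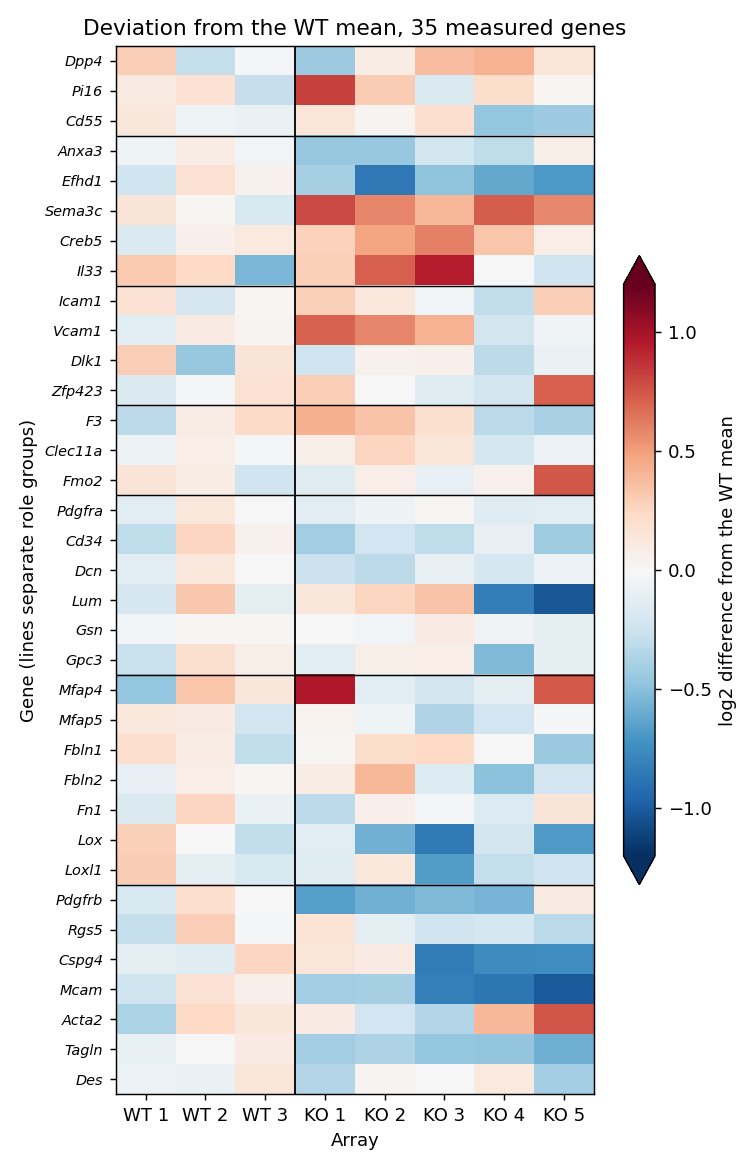
Log2 deviation of each array from the WT mean for the 35 measured genes (rows, grouped by role) in 3 WT and 5 KO arrays (columns), red for higher and blue for lower. Efhd1, Mcam and Tagln are blue and Sema3c is red in all KO columns, while Lum is blue in KO 4 and KO 5 alone among the KO arrays. The colour scale ends at -1.2 and 1.2.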

How the data were processed

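Transcript levels were read from the deposited log2 values of 8 arrays, 1 per mouse. The authors made them with RMA, per the submitters' processing notes, which also name oligo, while the design text names Expression Console; their versions, like the genome build, were not given in the sources used here. They were used without renormalization. RMA compresses differences of dim probe sets, and arrays carry no counts, so their number limits the precision. Groups came from the sample titles.

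Probe sets were named from the platform annotation (23521 with 1 symbol, 1814 with several, 16010 with none listed), and 23328 were updated by Entrez identifier through a RefSeq table of GRCm38.p6. The 2 genotypes entered a linear model in limma 3.58.1 (R 4.3.3, lmFit and eBayes, two-sided, Benjamini-Hochberg over 11090 genes, threshold 0.05). For single genes an exact permutation test, two-sided, enumerated the 56 divisions of the arrays. Nothing says whether mice shared a litter or day. Deviations of same-numbered WT and KO arrays correlated at 0.133, 0.103 and 0.192 over the tested genes. Arrays of unequal number were not set beside them, so these values cannot show a pairing. The replicate number was fitted as a block only as an alternative. Every gene listed was accounted for. Values per array are given for those with an unadjusted p under 0.05 or no overlap and for 9 fixed genes, and up to 4 genes with the smallest p are named from each further list. The members, the lists and these rules were chosen with earlier results of these data known. The fit was tested on simulated data. Alternatives were 2 scalings, 2 filters, the mean of probe sets, array weights, another variance prior, the block and left-out arrays. Figures were drawn with matplotlib 3.10.9.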

Additional observations from a re-analysis of the deposited data

Results flagged for a closer look

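Among 58 values checked for a KO array standing apart from the other 4, 2 did so, both in KO 5, where chance flags about 1 in 20. Pdgfrb was at 7.79 in KO 5 and at 7.02 to 7.15 in the other KO arrays, a gap of 0.832 of the whole KO range. Fmo2 was at 9.28 in KO 5 and at 8.39 to 8.61 in the other KO arrays, a gap of 0.745 of the range.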

How the results depend on the processing

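Among the 34 genes, Sema3c, Mcam and Tagln kept their direction and an unadjusted p under 0.05 in all 18 alternative settings, and Efhd1 in all 17 in which it was tested, at adjusted p-values of 0.056 to 0.628 in limma. No member passed the adjusted threshold in any setting. Of 899 values of the 50 named genes under these settings 861 kept their sign, and in 35 genes it never turned. The count of all genes with an unadjusted p under 0.05 was 1164 of 11090. It was 1871 of 22180 (8.44%) without the level filter, and of 11090 it was 1873 (16.9%) with array weights, 1997 with the replicate block and 731 without WT 1 and KO 4. The count past the adjusted threshold was 40 with array weights, 3 with a trended robust prior and 2 with the replicate block. Beside the mural median of -0.20, the block turned Cd55 (0.13), Fmo2 (-0.05), Lum (0.25), Gsn (0.02), Gpc3 (0.01), Fbln2 (0.11) and Acta2 (-0.16); no member passed the adjusted threshold under it, and at an unadjusted p under 0.05 it kept all 7 members and added Anxa3 and Vcam1. Array weights turned Cd55 (0.01), Zfp423 (0.00) and Acta2 (-0.10), and Gsn turned when centred (0.01) or quantile normalized (0.05). Without KO 1 and KO 2, Icam1 (-0.01), F3 (-0.17), Clec11a (-0.05) and Fbln1 (-0.07) turned, and without WT 1 and KO 4, Cd55 (0.05), F3 (-0.01) and Acta2 (-0.12). The cause of these shifts was not tested.

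Leaving out each array in turn gave 741 (without WT 1) to 1600 (without KO 5) genes with an unadjusted p under 0.05, 0 to 5 past the adjusted threshold, and 4 (without WT 2, KO 2 or KO 3) to 7 members. The interstitial median ranged from -0.02 (without WT 2) to 0.26 (without WT 1) and that of the stromal subset genes from 0.07 (without WT 3) to 0.42. The ranges that crossed or reached 0 were -0.05 to 0.26 for Acta2, -0.02 to 0.10 for Clec11a, -0.02 to 0.26 for Dpp4, -0.11 to 0.17 for F3, -0.14 to 0.11 for Fbln1, -0.20 to 0.02 for Fbln2, -0.03 to 0.20 for Fmo2, -0.14 to 0.07 for Fn1, -0.05 to 0.00 for Gsn, -0.03 to 0.17 for Icam1, -0.29 to 0.00 for Rgs5 and -0.02 to 0.22 for Zfp423.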

Other observations

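Loxl2, a collagen-crosslinking oxidase, was covered by 2 probe sets annotated to Gm21451 as well, so neither can be assigned to it alone. Means ± SD of the brighter were 6.71 ± 0.154 for 3 WT and 6.70 ± 0.160 for 5 KO arrays, a difference of -0.01, and those of the other 6.05 ± 0.556 and 5.8 ± 0.284, a difference of -0.25 (exact two-sided permutation p = 0.393).

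The genes differed in their spread within groups. With 1 array per mouse, differences between mice and measurement noise cannot be told apart, and the SD was not adjusted for signal level. Within groups, the SD was 0.0648 for Gsn, 0.0859 for Tagln and 0.0926 for Pdgfra, among the lowest of all tested genes (percentiles 0.478, 2.20 and 3.04), and 0.556 for Lum, 0.515 for Mfap4 and 0.483 for Il33, at percentiles 95.4, 93.9 and 92.7. The median over the 34 genes was 0.263, against 0.231 over all tested genes. Lum and the related proteoglycan Aspn were both lowest in KO 5 (5.87 and 5.62) and next lowest in KO 4 (6.07 and 5.81).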
